A study of Mus musculus with 16 samples.

Results

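The Akr1 genes of the mouse encode aldo-keto reductases, enzymes that reduce aldehydes and ketones with NADPH. The genes described here are all rows of the expression table whose symbol is Akr1 followed by a, b, c or e and a number, which gave 11 genes of 12321. They were selected on growth type with their levels known, because Akr1c18 and Akr1c19 are much more abundant in cells grown in methylcellulose than in a monolayer, so the values of that comparison are given for them as a description and without a test. Seen over the 11 genes the higher level held for some only, and Akr1b7 and Akr1c13 were lower in methylcellulose. Below, the family and its clusters mean these 11 genes, and any member without a row in the table is left out.

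All 16 libraries come from LKR10, an established mouse cell line derived from a lung adenocarcinoma. Cells of 4 groups were compared, with 4 libraries in each. Every group received a pLKO lentiviral vector that expresses a short hairpin RNA, was selected with puromycin at 4 µg/ml for 48 h and was grown for 96 h more before RNA was taken. In the shGFP groups the hairpin targets GFP and serves as the control, and in the shAnkrd35 groups it targets Ankrd35, a gene for an ankyrin repeat protein. In the 2D groups the cells grew as a monolayer, and in the 3D groups they grew in medium with 0.5% methylcellulose, a viscous gel in which cells do not attach. The labels do not say how many hairpins were used against each target, and no group without a vector was analysed here. They do not say either whether the libraries of a group came from separate cultures, so the p-values below measure the spread between libraries, which may be technical.

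The family divides into branches with different substrates. The Akr1a enzyme and the Akr1b enzymes act mainly on aldehydes, among them sugars, products of lipid oxidation and retinal. The Akr1c enzymes act on steroids, prostaglandins and foreign carbonyl compounds, and Akr1c18 is best known as the 20α-hydroxysteroid dehydrogenase that inactivates progesterone in the ovary. In lung tumours, several human members of the family are used as indicators of the activity of the transcription factor NRF2.

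Library totals ran from 13.82 to 28.72 M reads. Replicate 1 of 2D shAnkrd35 stood apart in ribosomal RNA-like transcripts, with a level of Gm23935 of 2109 CPM (reads per M reads of the effective library size) where the 3 libraries beside it had 239 to 313 CPM. Another such transcript, Gm26917, differed between whole hairpin groups. It had 1002.8 to 1784.2 CPM in 2D shAnkrd35 and 341.5 to 435.3 CPM in 2D shGFP. In 3D it had 421.5 to 470.1 CPM with shAnkrd35 and 199.0 to 249.3 CPM with shGFP. The part of this in the results was not tested. Replicate 1 of 2D shAnkrd35 also stood apart across genes, by the chi-squared per degree of freedom of reads between pairs of libraries. This value was 33.0 to 45.2 against the rest of its group, and 4.06 to 11.6 within the rest. In 2D shGFP, replicates 1 and 2 had 32.25. The targeted gene did not check the labels: in 2D, Ankrd35 had 2, 3, 6 and 7 reads per library with shGFP and 2, 6, 7 and 1 with shAnkrd35. In 3D it had 14, 17, 16 and 16 reads with shGFP and 12, 11, 9 and 9 with shAnkrd35. Relative to depth, the 3D means were 0.597 ± 0.0546 CPM with shGFP and 0.501 ± 0.0929 CPM with shAnkrd35 (SD, n = 4). The hairpin groups are therefore libraries labelled shAnkrd35 and shGFP wherever a direction is given below. Of 9 epithelial markers 6 were in the table, with a summed mean of 5588 to 7838 CPM per group. The largest part was Krt8, a keratin, with 2798 to 4681 CPM per library, while Epcam had group means of 0.406 to 2.58 CPM. Cldn4, Cldn7 and Esrp1 were not in the table. Of 12 lung markers 4 were, and Nkx2-1 and the surfactant genes Sftpa1, Sftpb, Sftpc and Sftpd were not among the genes analysed here. Markers of lymphocytes (0 of 8) and erythroid cells (0 of 6) were not among them either, and 1 of 7 endothelial markers was, Vwf. The 5 of 8 fibroblast markers in the table summed to 20.8 to 34.6 CPM in the libraries of the other 3 groups and to 12.6 to 17.9 CPM in 3 libraries of 3D shAnkrd35. Replicate 3 of that group stood apart at 48.2 CPM, with 22.7 CPM of Col1a1 where the rest of the group had 2.14 to 4.73 CPM. Without it, the same numbers of the 11 genes were called in the 3D hairpin comparison (5) and in the difference of hairpin effects (6) described below, with Akr1c18 at -1.02 and -2.72 log2. Of 9 macrophage markers only Cd68, Lyz2 and Cd14 were in the table, and they summed to 42.2, 83.9, 121 and 138 CPM in 2D shGFP, 2D shAnkrd35, 3D shGFP and 3D shAnkrd35, the order of Akr1c18 below apart from the last 2 groups, which are swapped. Most of each sum was Cd14, at 38.3, 75.4, 115 and 130 CPM in these groups. Cd68 was at 2.14, 4.22, 4.69 and 4.52 CPM, and its log2 difference of 3D from 2D with shAnkrd35 was 0.01 ± 0.25 (SE). Of the defining markers, Ptprc, Adgre1 and Csf1r were not among the genes analysed here. The part of such cells in the results was not tested.

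Most of the genes lie in 2 clusters (mm10 coordinates from GENCODE M21, counted from 1). On chromosome 6, Akr1b3 (34302434 to 34317478, minus strand), Akr1b8 (34354119 to 34368463, plus), Akr1b10 (34384218 to 34396950, plus) and Akr1b7 (34412334 to 34423142, plus) span 121 kb. On chromosome 13, Akr1c14 (4049011 to 4090688, plus), Akr1c18 (4132615 to 4150654, minus), Akr1c13 (4191150 to 4205596, plus), Akr1c19 (4228700 to 4252843, plus) and Akr1c12 (4268176 to 4279433, minus) span 230 kb. Akr1e1 (4590750 to 4609174, minus) lies 311.3 kb beyond Akr1c12, and Akr1a1 is alone on chromosome 4 (116636510 to 116651680, minus).

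Sequence decides how far reads can be assigned to each gene. Akr1c12 and Akr1c13 have coding sequences of 972 bases that differ at 37 positions, an identity of 96.2%, and their longest identical run is 228 bases. Of the windows of 50 bases in either transcript, 28.6% occur in the other without a mismatch, and of those of 100 bases 11.5% do. The counts of these 2 genes are therefore uncertain to the extent that shared reads were split between them or dropped. Their most divergent stretch, coding bases 313 to 402 counted from the first base of the start codon, is shown because reads there can tell the copies apart, with the 11 differing bases in capitals:
Akr1c13: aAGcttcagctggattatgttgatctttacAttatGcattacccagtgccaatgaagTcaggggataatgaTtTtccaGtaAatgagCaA
Akr1c12: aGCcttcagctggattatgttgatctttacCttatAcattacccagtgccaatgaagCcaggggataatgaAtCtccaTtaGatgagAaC

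The genes with the largest excess in 3D share little with any other transcript. Akr1c14 and Akr1c19 had 0 windows of 50 bases in another gene's transcript, and Akr1c18 had 0.608%, all in Akr1cl. The coding identity among Akr1c14, Akr1c18 and Akr1c19 was 73.8% to 76.0%. In the Akr1b cluster, 15.8% of the 50-base windows of Akr1b7 lie in other transcripts (Gm13857, Gm15806, Akr1b10 and Akr1b8), against 3.21% for Akr1b8 and 3.18% for Akr1b10. The values of Akr1b3 are the least certain of the family, since 86.2% of its 50-base windows and 74.0% of its 100-base windows also occur in gene models such as Gm38056 and Gm6644.

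The region upstream of the start was compared because members of one cluster differed widely in level. These windows hold the 200 bases from 250 to 51 bases before the RefSeq start (GRCm38.p6, the assembly of mm10). They were found for 10 of the 11 genes, all but Akr1b3. The RefSeq starts of Akr1c14 and Akr1c19 lie 10.6 and 5.04 kb inside the GENCODE genes, at the first base of the main transcript of each, so their windows are inside the gene and before that transcript. The other 8 windows lie before the gene. The windows of Akr1c14 (chr13:4059341-4059540, plus strand), Akr1c18 (chr13:4150697-4150896, minus strand) and Akr1c19 (chr13:4233490-4233689, plus strand) are shown since these are the 3 genes with the largest excess in 3D, with any match to CCAAT on either strand in capitals:
Akr1c14: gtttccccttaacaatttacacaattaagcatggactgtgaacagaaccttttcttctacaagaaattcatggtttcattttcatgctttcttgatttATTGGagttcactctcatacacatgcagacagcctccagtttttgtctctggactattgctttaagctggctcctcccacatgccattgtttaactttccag
Akr1c18: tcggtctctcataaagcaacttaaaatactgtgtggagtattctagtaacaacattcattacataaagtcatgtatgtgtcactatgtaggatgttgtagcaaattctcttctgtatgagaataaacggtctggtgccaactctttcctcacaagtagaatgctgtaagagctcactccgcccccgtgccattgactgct
Akr1c19: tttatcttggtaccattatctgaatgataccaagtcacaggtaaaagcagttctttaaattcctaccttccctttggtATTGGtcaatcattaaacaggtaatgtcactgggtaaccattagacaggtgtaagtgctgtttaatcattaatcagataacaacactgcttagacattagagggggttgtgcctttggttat

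These 3 windows were 54.8% to 56.6% identical after alignment. That is near the identity of unrelated windows of the family, for example 53.4% between Akr1c14 and Akr1a1. Akr1c12 (chr13:4279450-4279649, minus strand) and Akr1c13 (chr13:4190937-4191136, plus strand) were 95.9% identical over 196 aligned bases, and their windows are shown with the bases that differ or have no partner in capitals:
Akr1c12: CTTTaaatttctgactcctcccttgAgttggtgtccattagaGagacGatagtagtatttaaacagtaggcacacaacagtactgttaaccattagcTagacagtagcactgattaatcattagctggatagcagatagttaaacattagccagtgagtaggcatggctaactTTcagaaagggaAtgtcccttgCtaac
Akr1c13: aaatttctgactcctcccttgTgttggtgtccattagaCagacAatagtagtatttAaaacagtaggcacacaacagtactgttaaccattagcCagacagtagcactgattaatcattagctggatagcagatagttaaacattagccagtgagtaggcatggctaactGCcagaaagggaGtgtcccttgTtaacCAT

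A search of both strands for the core of the antioxidant response element (TGACNNNGC, bound by NRF2), the AP-1 site (TGANTCA) and the STAT site (TTCNNNGAA) found 0 matches in the 10 windows. Among all 32851 windows of the same length in the RefSeq table, 7.66%, 5.57% and 5.76% hold them. The TATA motif (TATAAA) matched in Akr1b8 only, 159 bases before the start, against 9.14% of all windows. The windows end 51 bases before the start. A TATA box nearer to it could not be found, so the search does not show which genes have or lack one. CCAAT matched in Akr1b7, Akr1c14, Akr1c19 and Akr1e1, against 28.4% of all windows. These are matches of letters in a short window and no evidence on binding.

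Akr1c19, whose product oxidises hydroxysteroids and other alcohols, had the largest excess in 3D. Its level was 0.483, 1.26, 0.571 and 0.760 CPM in the 4 libraries of 2D shGFP and 20.5, 21.4, 20.8 and 14.8 CPM in 3D shGFP. With shAnkrd35 it was 0.322, 0.713, 0.276 and 0.891 CPM in 2D and 18.6, 21.1, 21.3 and 21.0 CPM in 3D. Every 3D library was thus above every 2D library with either hairpin, and 1 library of 3D shGFP, replicate 4, was lower than the rest of its group. The mean was 25.2 times as high in 3D as in 2D with shGFP and 37.2 times with shAnkrd35. On the log2 scale the difference was 4.57 ± 0.30 (SE) and 5.13 ± 0.30, the 5th and the 3rd highest of 12320 genes. These ranks describe the difference on which the gene was selected and lend it no support. With 0.276 to 1.26 CPM in 2D, Akr1c19 passed the filter of 1 CPM in at least 4 libraries through its 3D libraries. The 2D levels rest on 63 and 46 reads in all. In bulk RNA a larger share of cells that express a gene and more RNA per cell cannot be told apart, which holds for each level given here.

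Akr1c18, the 20α-hydroxysteroid dehydrogenase, was at 0.845, 0.890, 1.48 and 0.963 CPM in 2D shGFP and at 2.81, 3.95, 4.10 and 3.32 CPM in 2D shAnkrd35. In 3D it was at 19.1, 20.8, 23.2 and 22.5 CPM with shGFP and at 9.33, 10.9, 9.47 and 11.3 CPM with shAnkrd35. The 4 groups did not overlap, and their order was 2D shGFP, 2D shAnkrd35, 3D shAnkrd35, 3D shGFP. The excess in 3D was 20.5 times with shGFP (4.27 ± 0.15 log2, SE) and 2.90 times with shAnkrd35 (1.52 ± 0.15).

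Akr1c14 encodes a 3α-hydroxysteroid dehydrogenase. It had 7.08, 16.7, 10.6 and 13.2 CPM in 2D shGFP and 11.0, 8.65, 9.58 and 12.0 CPM in 2D shAnkrd35, so the 2D groups overlapped. In 3D it had 98.0, 91.9, 98.6 and 109 CPM with shGFP and 49.6, 57.9, 48.7 and 62.0 CPM with shAnkrd35, and these groups did not overlap. The 3D mean was 8.36 times the 2D mean with shGFP (3.12 ± 0.19 log2) and 5.28 times with shAnkrd35 (2.39 ± 0.19). Of the 11 genes Akr1c14 has the lowest GC content (38.4% of the bases of its longest transcript), and libraries differed in how levels depended on GC. Spearman's rho across genes between GC content and a library's deviation was 0.377, -0.201, 0.180 and -0.036 in the 4 libraries of 2D shGFP, the reverse order of their Akr1c14 levels. It was 0.383 to 0.583 in 2D shAnkrd35, -0.494 to -0.389 in 3D shGFP and -0.427 to -0.213 in 3D shAnkrd35. With exonic length in place of GC content, rho was -0.056 to 0.178 in 2D shGFP and 0.019 to 0.277 in the 3D libraries. In 2D shAnkrd35 it was 0.031 in replicate 1 and -0.353 to -0.31 in the rest. With the trend with GC content and length taken out of each library, the differences of Akr1c14 were 2.47 and 1.47 log2, smaller than as deposited and of the same sign.

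**Figure D1:**
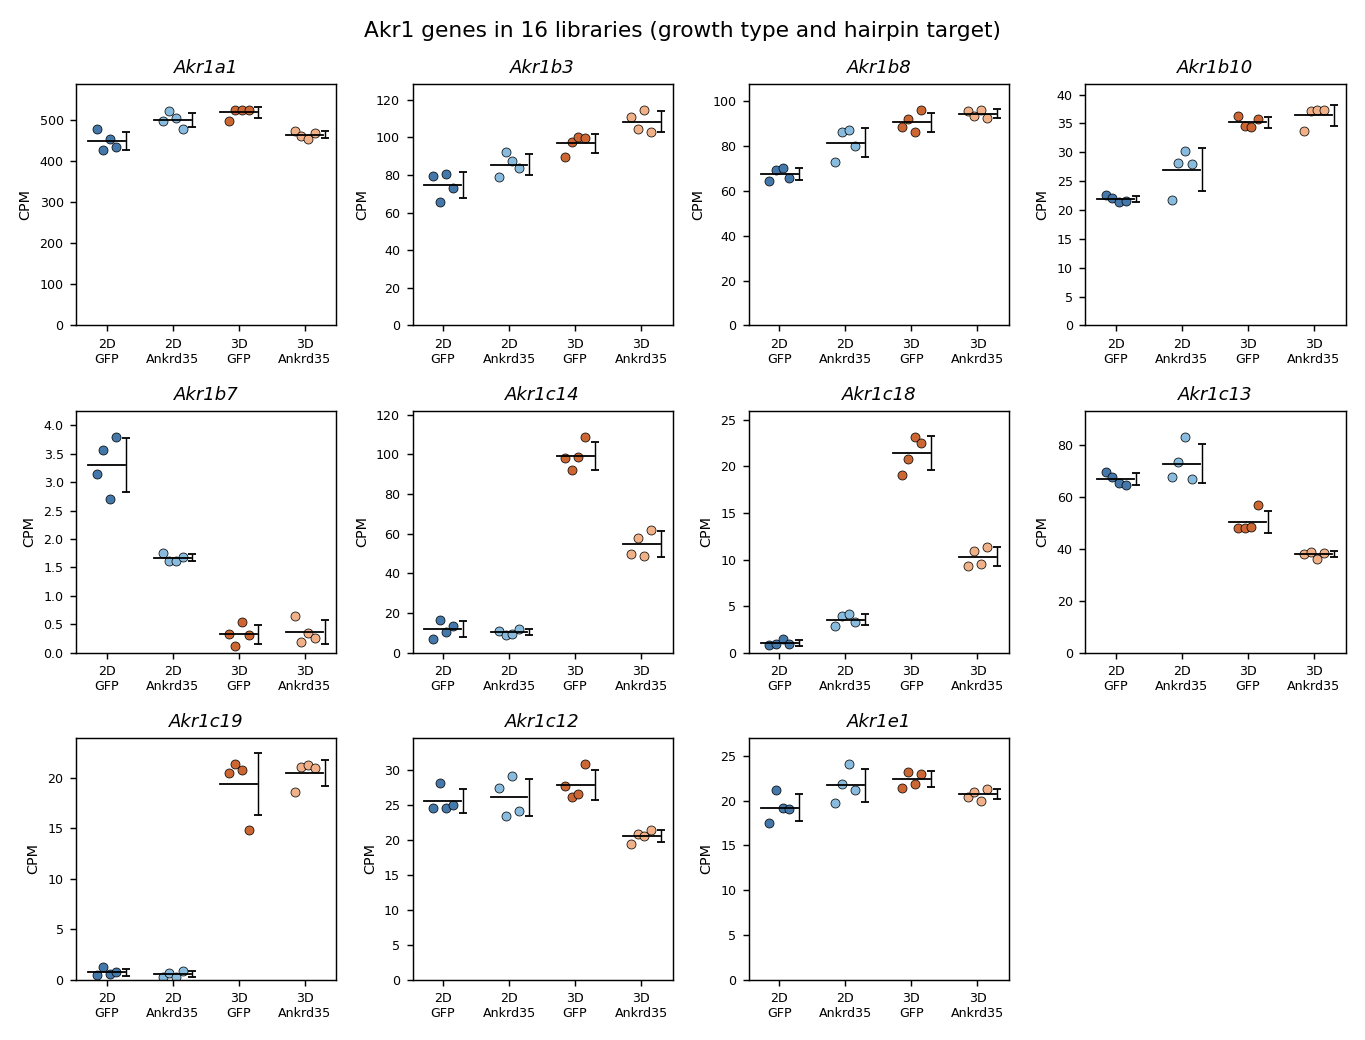
Level of each of the 11 genes in CPM (y axis, linear, from 0) in the 4 libraries of each group (x axis: growth type and hairpin target), with the mean as a horizontal line and the SD as a bar. Akr1c19, Akr1c18 and Akr1c14 lie far higher in 3D, Akr1b7 lies far lower, and Akr1a1 stays between 428 and 526 CPM in all libraries.

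Akr1c13 and Akr1c12, the near-identical pair, were not higher in 3D to the extent of Akr1c14, Akr1c18 and Akr1c19. Akr1c13 had 69.6, 67.4, 65.2 and 64.6 CPM in 2D shGFP, 67.7, 73.2, 83.1 and 66.7 CPM in 2D shAnkrd35, 48.0, 48.1, 48.3 and 56.9 CPM in 3D shGFP and 38.0, 38.8, 36.1 and 38.2 CPM in 3D shAnkrd35. Both 3D groups lay below both 2D groups. The 3D level was 0.754 of the 2D level with shGFP (-0.41 ± 0.07 log2) and 0.520 with shAnkrd35 (-0.94 ± 0.07). Akr1c12 had group means of 25.6 ± 1.72, 26.1 ± 2.68, 27.9 ± 2.11 and 20.6 ± 0.833 CPM (SD, n = 4) in 2D shGFP, 2D shAnkrd35, 3D shGFP and 3D shAnkrd35. Its 2D and 3D libraries overlapped with shGFP (0.12 ± 0.08 log2) and did not with shAnkrd35 (-0.33 ± 0.08). With the trend with GC content and length removed, the first of these values was -0.11.

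The summed level of the 5 Akr1c genes and its makeup both differed between the growth types. The sum was 106 ± 5.70 CPM in 2D shGFP, 113 ± 8.76 in 2D shAnkrd35, 218 ± 11.1 in 3D shGFP and 144 ± 9.61 in 3D shAnkrd35 (SD, n = 4). Akr1c13 made up 63.1% ± 3.74 of it in 2D shGFP and 23.0% ± 0.932 in 3D shGFP. The share of Akr1c14 was 11.1% ± 3.30 and 45.5% ± 1.04. With shAnkrd35 the share of Akr1c13 was 64.1% ± 2.39 in 2D and 26.3% ± 1.39 in 3D, and that of Akr1c14 was 9.20% ± 1.76 and 37.9% ± 2.01. Akr1c18 and Akr1c19 together with Akr1c14 were a small part of these reads in 2D and the larger part in 3D. Shares of CPM favour longer transcripts, of which Akr1c14 has the longest here by its main transcript. Per kb of that transcript, Akr1c14 and Akr1c13 were at 40.8 and 39.9 CPM in 3D shGFP, within their spread, and at 22.4 and 29.9 CPM in 3D shAnkrd35.

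**Figure D2:**
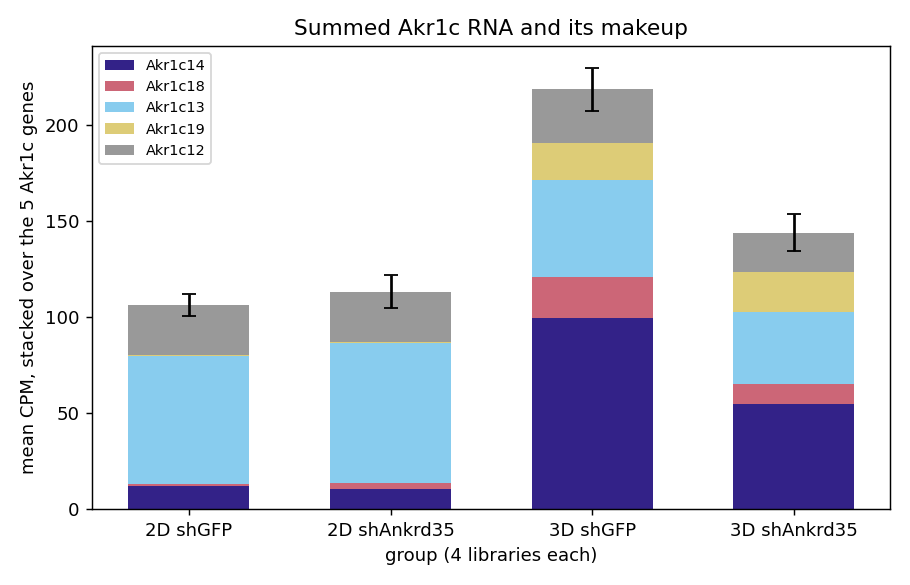
Mean CPM of the 5 Akr1c genes stacked (y axis, from 0) in each group of 4 libraries (x axis), with the SD of the sum as a bar. The sum is 106 and 113 CPM in the 2D groups, mostly Akr1c13, and 218 and 144 CPM in the 3D groups, where Akr1c14 takes the largest share of CPM, which is not corrected for transcript length.

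The Akr1b genes on chromosome 6 differed in direction. Akr1b7, known as the mouse vas deferens protein and a prostaglandin F synthase, had 3.14, 3.56, 2.71 and 3.80 CPM in 2D shGFP and 0.326, 0.117, 0.540 and 0.303 CPM in 3D shGFP. It had 1.75, 1.62, 1.61 and 1.68 CPM in 2D shAnkrd35 and 0.652, 0.188, 0.351 and 0.260 CPM in 3D shAnkrd35. Each 3D library lay below each 2D library, and the 3D groups rest on 34 and 31 reads. The 2D mean was 10.3 times the 3D mean with shGFP (-3.14 ± 0.31 log2, the 32nd lowest of 12320 genes) and 4.59 times with shAnkrd35 (-2.06 ± 0.31). This rank too is on the comparison that selected the family. Akr1b7 passed the filter of 1 CPM in at least 4 libraries through its 2D libraries alone.

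The other 3 genes of that cluster were higher in 3D by small amounts. Akr1b10, a reductase of retinal and other aldehydes, had 21.3 to 22.6 CPM in 2D shGFP and 34.4 to 36.2 CPM in 3D shGFP (0.68 ± 0.08 log2). Akr1b8, first described as a protein induced by fibroblast growth factor, had 64.3 to 69.9 CPM and 86.0 to 95.7 CPM (0.43 ± 0.05). Akr1b3, the aldose reductase that turns glucose into sorbitol, had 65.5 to 80.2 CPM and 89.4 to 100 CPM (0.38 ± 0.07). With shAnkrd35 the differences of Akr1b10, Akr1b8 and Akr1b3 were 0.44, 0.21 and 0.34 log2. With the trend with GC content and length removed they were 0.65, 0.51 and 0.41. Neighbours in the cluster were thus on opposite sides: Akr1b10 and Akr1b7 are 15.4 kb apart.

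Akr1a1 and Akr1e1 changed little. Akr1a1, the aldehyde reductase that also takes part in ascorbate synthesis in mice, was the most abundant gene of the family at 449 ± 22.8, 501 ± 17.6, 519 ± 13.3 and 464 ± 8.85 CPM (SD, n = 4) in 2D shGFP, 2D shAnkrd35, 3D shGFP and 3D shAnkrd35. Akr1e1, a 1,5-anhydrofructose reductase by its usual name, was at 19.2 ± 1.49, 21.7 ± 1.81, 22.4 ± 0.849 and 20.7 ± 0.560 CPM. The log2 difference of 3D from 2D was 0.21 ± 0.04 and -0.11 ± 0.04 for Akr1a1 with shGFP and shAnkrd35, and 0.22 ± 0.07 and -0.07 ± 0.07 for Akr1e1. Under scaling by library totals the last of these was 0.02, so its sign depends on the scaling, and the other 3 kept theirs under both scalings tried. With the trend with GC content and length removed, Akr1a1 was 0.02 with shAnkrd35 and Akr1e1 was -0.03 with shGFP, so the signs of these were not settled either, and Akr1e1 was -0.36 with shAnkrd35.

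Over the 11 genes the median log2 difference of 3D from 2D was 0.38 with shGFP and 0.21 with shAnkrd35, beside 0.03 and -0.02 over all genes tested. With shGFP 9 genes had a positive and 2 a negative difference, from -3.14 to 4.57. With shAnkrd35 6 were positive and 5 negative, from -2.06 to 5.13. Scaling by library totals in place of the deposited scaling moved the median of all genes by 0.119 with shGFP.

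**Figure D3:**
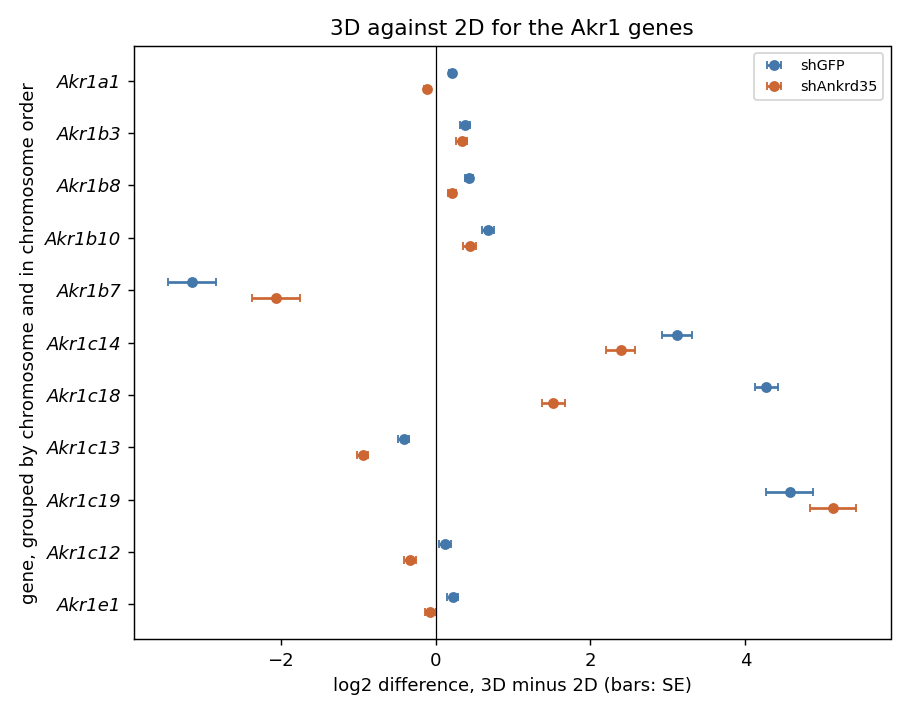
Log2 difference of 3D from 2D (x axis) for the 11 genes (y axis, in chromosome order within clusters) with shGFP and with shAnkrd35, with the SE as a bar. Differences run from -3.14 to 4.57 with shGFP, and genes on opposite sides of 0 lie side by side in both clusters.

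Levels of different genes can be compared only per length of transcript, here CPM per kb of the main coding transcript. In 2D shGFP the order was Akr1a1 (316 CPM per kb), Akr1b3 (53.8), Akr1c13 (52.9), Akr1b8 (49.5), Akr1c12 (20.3), Akr1b10 (16), Akr1e1 (5.55), Akr1c14 (4.88), Akr1b7 (2.58), Akr1c18 (0.869) and Akr1c19 (0.618). Akr1b3 and Akr1c13 differed by less than the SD of Akr1b3 (4.97), and the same holds for Akr1e1 and Akr1c14 (SD 1.67) and for Akr1c18 and Akr1c19 (SD 0.278 for Akr1c19). In 3D shGFP the order was Akr1a1 (365), Akr1b3 (69.7), Akr1b8 (66.6), Akr1c14 (40.8), Akr1c13 (39.9), Akr1b10 (25.7), Akr1c12 (22.1), Akr1c18 (17.8), Akr1c19 (15.6), Akr1e1 (6.46) and Akr1b7 (0.251). There Akr1b3 and Akr1b8 (SD 3.61 and 3.08), Akr1c14 and Akr1c13 (2.90 and 3.47) and Akr1c18 and Akr1c19 (1.52 and 2.47) did not differ beyond their spread. Places in these orders depend on the transcript. With its longest, of 5832 bases in place of 1242, Akr1c19 had 3.32 CPM per kb in 3D shGFP. With its longest, Akr1c14 had 31.2 there, below Akr1c13, and with its shortest, Akr1b10 had 34.4 there and 21.4 in 2D shGFP, above Akr1c12.

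The comparison of the hairpins within a growth type did not choose the genes and was tested with limma, a linear model with moderated variances, over all genes, with p-values adjusted by the Benjamini-Hochberg method and a threshold of 0.05. It uses the same libraries as the comparison of 3D with 2D. The p-values and ranks of Akr1c18 and Akr1c19 in it are therefore not independent of their selection on growth type. In 2D, 6 of the 11 genes were higher and 1 was lower in libraries labelled shAnkrd35 than in shGFP. Of all genes tested 29.0% were called higher and 28.8% lower, so a call in this comparison is common. The median log2 fold change was 0.16 over the 11 genes and 0.01 over all genes.

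Akr1c18 stood out among them, with a rise of 1.70 ± 0.15 log2 (adjusted p = 1.49e-07), 3.40 times the mean CPM of shGFP and the 43rd highest of 12320 genes. Akr1b7 fell by 0.94 ± 0.31 log2 (adjusted p = 0.0168), with no overlap between the groups. The other calls were small: Akr1b10 rose by 0.29 (adjusted p = 0.00412), Akr1b8 by 0.27 (0.000486), Akr1b3 by 0.20 (0.0173), Akr1e1 by 0.17 (0.0363) and Akr1a1 by 0.16 (0.00446). Among these, the libraries of Akr1b8 and Akr1a1 did not overlap between the groups, while those of Akr1b10, Akr1b3 and Akr1e1 did. The share of all genes without overlap in 2D was not counted. Akr1b8 had 64.3, 69.2, 69.9 and 65.6 CPM in 2D shGFP and 72.9, 86.1, 86.9 and 79.7 CPM in 2D shAnkrd35. Its call ended with the trend with GC content and length removed (0.01, adjusted p = 0.892). That of Akr1e1 ended in 6 settings: in the fit to the 8 libraries of 2D alone (adjusted p = 0.115) and without replicate 1, 3 or 4 of 2D shGFP or replicate 2 or 3 of 2D shAnkrd35 (0.0632 to 0.137). That of Akr1b3 ended in the fit to 8 libraries too (0.0559) and without replicate 2 of either group (0.0711 and 0.0627).

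Akr1c12, Akr1c13, Akr1c14 and Akr1c19 did not pass the test in 2D. The 95% interval of the log2 fold change was -0.14 to 0.18 for Akr1c12, -0.03 to 0.26 for Akr1c13, -0.56 to 0.27 for Akr1c14 and -1.10 to 0.16 for Akr1c19. For Akr1c14 the sign was not settled: it was called at -0.37 (adjusted p = 0.0318) without replicate 1 of 2D shGFP, was 0.04 without replicate 2, and was called at 0.27 (0.014) with the trend with GC content and length removed. Akr1c19 was called at -0.71 (0.0423) without replicate 4 of 2D shAnkrd35.

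In 3D none of the 11 genes was called higher and 5 were called lower in libraries labelled shAnkrd35, beside 15.0% and 14.6% of all genes called higher and lower. At an unadjusted p under 0.05, 1 gene was higher, Akr1b3, and limma without trend and robust fitting called 0. The median was -0.11 against 0.00 over all genes. The 5 were Akr1a1 and 4 of the 5 Akr1c genes. Akr1c18 fell by 1.05 ± 0.15 log2 (adjusted p = 6.15e-05), to 0.480 of the shGFP mean. Akr1c14 fell by 0.87 ± 0.19 (0.00342), Akr1c12 by 0.43 ± 0.08 (0.000321), Akr1c13 by 0.41 ± 0.07 (0.000205) and Akr1a1 by 0.16 ± 0.04 (0.00834). In each of the 5 the 4 shAnkrd35 libraries lay below the 4 shGFP libraries. Akr1b3 and Akr1e1, which were not called, did not overlap between the groups either. The share of all genes without overlap was not counted, so the separation adds nothing to the calls. Since Akr1c12 and Akr1c13 share sequence, their 2 calls are not independent measurements.

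Akr1c19 was the exception in its cluster, at 0.10 ± 0.30 log2 in 3D, with an interval of -0.54 to 0.73. No Akr1b gene passed the test in 3D. The intervals were 0.02 to 0.30 for Akr1b3 (adjusted p = 0.0798), -0.05 to 0.17 for Akr1b8, -0.12 to 0.21 for Akr1b10 and -0.52 to 0.81 for Akr1b7, and Akr1e1 had -0.26 to 0.03. Akr1b3 was called at 0.16 in the fit to the 8 libraries of 3D alone (adjusted p = 0.0127).

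**Figure D4:**
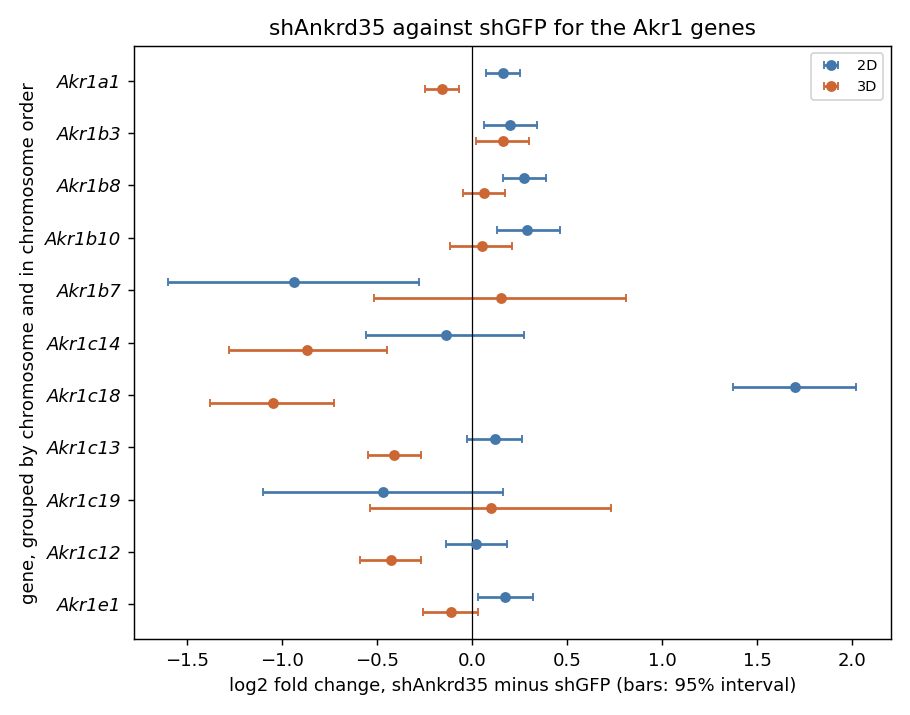
Log2 fold change of shAnkrd35 against shGFP (x axis) for the 11 genes (y axis) in 2D and in 3D, with the 95% interval as a bar. Akr1c18 lies at 1.70 in 2D and at -1.05 in 3D, and Akr1c14, Akr1c13 and Akr1c12 lie below 0 in 3D with intervals that do not reach 0.

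Whether the hairpin effect differed between growth types was tested as the difference of the effects, 3D minus 2D. The same quantity is the difference of 3D from 2D with shAnkrd35 minus that with shGFP. It is thus built from the values on which Akr1c18 and Akr1c19 were selected. Their p-values and ranks in this test are not independent of that selection. None of the 11 genes was called higher and 6 were called lower, beside 17.1% and 18.6% of all genes, with a median of -0.29 against 0.00. At an unadjusted p under 0.05, 1 gene was higher, Akr1b7, and limma without trend and robust fitting called 0. Akr1c18 had the lowest value of all 12320 genes, -2.75 ± 0.22 (adjusted p = 2.83e-07, interval -3.21 to -2.29), since it rose in 2D and fell in 3D. The others were Akr1c13 at -0.53 ± 0.10 (0.000677), Akr1c12 at -0.46 ± 0.11 (0.00428), Akr1a1 at -0.32 ± 0.06 (0.00086), Akr1e1 at -0.29 ± 0.10 (0.0279) and Akr1b8 at -0.21 ± 0.08 (0.0408). Akr1a1 also had opposite calls in the separate comparisons, higher in 2D and lower in 3D, and both ended with the replicate block and the removal of the trend with GC content and length together (0.09, adjusted p = 0.0674, and -0.10, 0.0729). The value of Akr1b8 was 0.05 (adjusted p = 0.619) with the trend with GC content and length removed, and 0.05 (0.645) with the replicate block added to that. Its call ended in 12 other settings, 10 of which leave out 1 library. The call of Akr1e1 ended without replicate 3 of 2D shAnkrd35 (0.0639) and without replicate 2 or 4 of 3D shGFP (0.0562 and 0.0523).

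The difference for Akr1c14 was -0.72 ± 0.27 (adjusted p = 0.0521), and it passed the threshold in 8 alternatives, from -0.50 (0.0437) without replicate 1 of 2D shGFP and -0.91 (0.00616) without replicate 2 to -1.0 with the GC content and length trend removed (6.42e-06). Akr1b7 had 1.09 ± 0.44 (0.0648), and was called at 1.33 (0.0271) without replicate 3 of 3D shGFP, at 1.29 (0.0356) without replicate 2 of 3D shAnkrd35 at 1.34 (0.0264) with that trend removed, with the block added too (0.0265), and at 1.0 (0.034) with a prior of 5 reads. The difference was -0.25 ± 0.11 (0.0869) for Akr1b10, 0.56 ± 0.42 (0.309) for Akr1c19 and -0.04 ± 0.09 (0.780) for Akr1b3. Akr1b10 was called at -0.35 (0.00109) without replicate 1 of 2D shAnkrd35, the library that stood apart, where it had 21.8 CPM against 27.9 to 30.3 CPM in the rest of the group.

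Other genes of the pathways the family works in were taken from lists that leave out the 11 genes, and some genes stand on more than one list. As the background for these counts, 35.2% of all tested genes were called higher in 3D than in 2D with shGFP and 32.1% were called lower. With shAnkrd35 these shares were 34.4% and 36.0%. For shAnkrd35 against shGFP the shares called higher and lower were 29.0% and 28.8% in 2D, and 15.0% and 14.6% in 3D. For the difference of hairpin effects they were 17.1% and 18.6%. Of 6 other aldo-keto reductases 1 was in the table, Akr7a5, an aflatoxin aldehyde reductase. It rose in libraries labelled shAnkrd35 in 2D by 0.57 ± 0.08 log2 (adjusted p = 1.93e-05).

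Of 40 target genes of NRF2, the factor that induces many detoxifying enzymes, 24 were higher and 10 lower in 3D with shGFP (median 0.35 log2), and 23 and 12 with shAnkrd35 (0.32). Gclc, the catalytic subunit of the enzyme that starts glutathione synthesis, was at 275 ± 12.9 CPM in 2D and 636 ± 23.3 CPM in 3D with shGFP (1.21 log2, adjusted p = 3.32e-13). Cat, which encodes catalase, rose from 83.0 to 166 CPM (1.0, 4.81e-13) and Gsr, glutathione reductase, from 69.3 to 145 CPM (1.06, 1.21e-12). In 3D 2 targets were higher and 16 lower in libraries labelled shAnkrd35 (median -0.14), and in 2D 13 were higher and 11 lower (0.00). Of 8 regulators of the NRF2 pathway 3 were higher and 4 lower in 3D with shGFP (median -0.19). Nfe2l1, which encodes a factor related to NRF2, fell by 1.21 ± 0.04 (adjusted p = 1.94e-13), and Mafg and Mafk, small Maf proteins that pair with NRF2 on DNA, fell by 0.60 ± 0.05 (1.74e-08) and 0.42 ± 0.05 (3.61e-06). The gene for NRF2 itself, Nfe2l2, rose by 0.36 ± 0.05 in 3D with shGFP (adjusted p = 4.26e-06), and Keap1, its inhibitor, was at 0.05 ± 0.06 (0.490).

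The short-chain dehydrogenases, which act on the same carbonyls, retinoids and steroids with another protein fold, had 14 higher and 7 lower of 26 in 3D with shGFP. Dhrs3, a retinal reductase, rose from 16.8 to 89.1 CPM (2.41 ± 0.10 log2, adjusted p = 1.82e-12) and Rdh10, a retinol dehydrogenase, from 24.0 to 60.8 CPM (1.34 ± 0.05, 4.07e-13). Hsd17b7, a steroid reductase that also serves cholesterol synthesis, rose from 74.5 to 227 CPM (1.61 ± 0.05, 5.13e-14). Cbr1, a carbonyl reductase of prostaglandins, rose by 1.09 ± 0.12 (7.42e-07). In the difference of the hairpin effects, 1 gene of this list was higher and 14 were lower (median -0.25). In 2D 14 were higher and 2 lower in libraries labelled shAnkrd35.

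Glutathione S-transferases had 12 higher and 5 lower of 20 in 3D with shGFP (median 0.56), 10 higher and 0 lower in libraries labelled shAnkrd35 in 2D, and 1 higher and 10 lower in the difference. In limma 1 of them, Gsta1, was lower in 2D at an unadjusted p under 0.05, and limma without trend and robust fitting called 1 gene lower. Gsta4, which conjugates the lipid aldehyde hydroxynonenal, rose from 181 to 418 CPM in 3D with shGFP (1.21 ± 0.06, adjusted p = 2.84e-11). Mgst1, a microsomal transferase, rose from 60.2 to 146 CPM (1.28 ± 0.05, 2.19e-12).

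Of 13 genes for NADPH supply, the cofactor of the family, 7 were higher and 3 lower in 3D with shGFP (median 0.13). Nadk2, the mitochondrial NAD kinase, rose by 1.79 ± 0.12 log2 (adjusted p = 2.93e-09) and Idh1, the cytosolic isocitrate dehydrogenase, by 1.08 ± 0.06 (6.44e-11). Of 16 aldehyde dehydrogenases, which oxidise the aldehydes that the family reduces, 8 were higher and 5 lower. Aldh3a1 rose from 105 to 309 CPM (1.56 ± 0.04, 1.37e-14), while Aldh1l2, a mitochondrial folate enzyme, fell by 5.28 ± 0.07 (1.17e-18), from 282 to 7.20 CPM.

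Of 15 genes of prostaglandin synthesis and signalling 8 were higher and 3 lower in 3D with shGFP. Ptger4, a receptor of prostaglandin E2, had the same order of group means as Akr1c18, with 2.26, 3.66, 10.1 and 6.13 CPM in 2D shGFP, 2D shAnkrd35, 3D shGFP and 3D shAnkrd35. It rose in 2D (0.68 ± 0.12, adjusted p = 0.000225) and fell in 3D (by 0.71 ± 0.12, 0.00036) in libraries labelled shAnkrd35. Ptgfr, the receptor of prostaglandin F2α, was not among the genes analysed here. Of 14 genes of the polyol pathway and the osmotic response 7 were higher and 6 lower. Sord, which acts after aldose reductase in the polyol pathway, fell by 0.55 ± 0.05 (5.24e-08). Of 12 genes of retinoid handling 7 were higher and 5 lower, and of 14 hypoxia targets 4 were higher and 8 lower.

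The tested genes next to the clusters had smaller differences than Akr1c19, Akr1c18, Akr1c14 and Akr1b7. On chromosome 13, Net1 lies 130.8 kb before Akr1c14, and it had 236 and 279 CPM in 2D and 3D shGFP (0.24 ± 0.04 log2, adjusted p = 2.28e-05). Klf6 lies 1252.3 kb after Akr1e1 and fell by 1.21 ± 0.09 (4.85e-09). On chromosome 6, Slc35b4 lies 125.3 kb before Akr1b3 and fell by 0.16 ± 0.04 (0.0044). Bpgm lies 53.1 kb after Akr1b7 and rose by 0.60 ± 0.10 (8.39e-05), while Akr1b7 was lower.

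For the 3 genes with the largest absolute difference between 2D and 3D, the genes most like them over the 16 libraries were found by Pearson's r of log2 values, among 9910 genes with a mean of at least 5 CPM. Akr1c19 was most like Sec11c, Cutc and Crebzf, each with r = 0.988, and 748 genes reached 0.9. Akr1c18 was most like Eya2 (0.984), Cxcl16 (0.983) and Anxa8 (0.981), and 302 genes reached 0.9. Akr1b7 was most like Wfs1 (0.969), Copz2 (0.965) and Fosl2 (0.964), and 465 reached 0.9. The libraries share 4 groups, so such values arise for any genes that differ between the groups in the same order. Cxcl16, a chemokine, had 5.42, 8.78, 23.2 and 15.6 CPM in 2D shGFP, 2D shAnkrd35, 3D shGFP and 3D shAnkrd35, the order of Akr1c18 with smaller steps.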

How the data were processed

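RNA selected with oligo(dT) beads was turned into libraries with random hexamers, per the labels' protocols. The submitters' processing notes name Trimmomatic 0.38, STAR 2.5.1b, edgeR and the mm10 build. How reads were counted, on which annotation and with or without strand is not given in the sources used here. The authors deposited log2 values, 1 column for each of the 16 libraries. From the values, each is log2 of the reads per M reads of an effective library size (CPM) plus a prior averaging 2 reads (0.0889 CPM). In every library 100% of values came out as whole reads within 0.01 reads, and CPM printed here are those reads over the effective library size, without the prior. Fold changes include the prior and understate changes of low genes.

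In 386 symbols changed by software the name was restored. Of all symbols 12218 matched GENCODE M21 and 103 did not. The test was limma 3.58.1 (R 4.3.3, statmod 1.5.0) with trend and robust moderation on a model of the 4 groups over all 16 libraries. Genes needed at least 1 CPM in at least 4 libraries, which left 12320, all 11 members of the family among them, and removed Ankrd35. All 12320 also reached 1 CPM, prior included, in at least 8 libraries. A gene that is not in the table may therefore have been expressed in 1 group of 4 libraries. P-values were adjusted by Benjamini-Hochberg over genes, and rose and fell mean an adjusted p under 0.05. The scripts were tested on simulated data. The planned design allowed for a linear or a log2 unit, and the second applied. Sequences come from GENCODE M21 transcripts and RefSeq promoters, aligned with Biopython 1.88. Of the 5 motifs searched, the STAT site was added after the others had been looked at.

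The family, the lists and the tests were chosen with earlier results of these data known. Named genes outside the family are up to 4 per list with the smallest p in 3D against 2D with shGFP among those called, plus Sord, Cbr1, Nfe2l2 and Keap1. Akr7a5, Bpgm, Gsta1, Klf6, Net1, Slc35b4, Vwf, Gm23935, Ptgfr, Krt8, Cldn4, Cldn7 and Esrp1 were named after their values or absence were seen. Replicate numbers are shared labels. They did not pair the samples within any of the 4 pairs of groups compared directly, while 2D shGFP and 3D shAnkrd35, which were not, correlated by number at 0.119 to 0.186.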

Additional observations from a re-analysis of the deposited data

Results flagged for a closer look

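In 44 groups of 4 libraries (11 genes by 4 groups), the highest or lowest library was checked on the log2 scale for a gap to the next that exceeds Dixon's 95% critical value, which chance gives in about 1 of 20 groups, and 6 stood apart. Replicate 4 of 3D shGFP was high for Akr1c13 (56.9 CPM) and low for Akr1c19 (14.8 CPM). Replicate 1 of 3D shAnkrd35 was low for Akr1c19 (18.6 CPM) and Akr1b10 (33.6 CPM). Replicate 2 of 2D shGFP was high for Akr1c12 (28.2 CPM), and replicate 1 of 3D shGFP was low for Akr1a1 (499 CPM).

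The hairpin effect differed between 3D and 2D (3D minus 2D, limma, adjusted p under 0.05) for 6 genes. For Akr1c18 this test is not independent of its selection on growth type. The log2 differences were -2.75 for Akr1c18, -0.53 for Akr1c13, -0.46 for Akr1c12, -0.32 for Akr1a1, -0.29 for Akr1e1 and -0.21 for Akr1b8.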

How the results depend on the processing

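The number of the 11 genes called in each hairpin comparison and in their difference stayed within 1.5 times of its value in every alternative that could be run. The median difference of 3D from 2D was 0.50 with shGFP under library totals as scaling (0.38 as deposited), and 0.41 with shAnkrd35 with the trend with GC content and length removed, with or without the block (0.21 as deposited). Akr1b7 has no value under the filter of a mean of at least 5 CPM, and the fit to 8 libraries does not apply to the difference. Some genes changed sign. With the GC content and length trend removed, Akr1c14 was 0.27 and Akr1c12 -0.05 for the hairpin in 2D, Akr1c12 was -0.11 and Akr1e1 -0.03 for 3D against 2D with shGFP, Akr1a1 was 0.02 with shAnkrd35, and Akr1b8 was 0.05 in the difference. These 6 values were the same with the block added. Akr1e1 was 0.02 with shAnkrd35 under library totals, and Akr1c12 was -0.02 in 2D without both libraries numbered 1, an alternative added after seeing the data. With each replicate left out in turn, values ran from -0.37 to 0.04 for Akr1c14 and from -0.03 to 0.07 for Akr1c12 with the hairpin in 2D, from -0.03 to 0.15 for Akr1c19 and from -0.15 to 0.39 for Akr1b7 in 3D, and from -0.08 to 0.02 for Akr1b3 in the difference. The cause was not tested.

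Replicate numbers were shared by the groups. Same-numbered deviations correlated at -0.483 to 0.206 between the 2D groups and at -0.197 to 0.153 between the 3D groups, at -0.02 to -0.007 between growth types with shGFP and at -0.141 to 0.193 with shAnkrd35, so no pairing was seen in a direct comparison. Between 2D shGFP and 3D shAnkrd35, which meet only in the difference, all 4 correlations were 0.119 to 0.186 and each library was most like its own number, a hint from the data and not from the design. With the replicate block alone 7 genes were called in 2D, 5 in 3D and 7 in the difference (6 without the block), where Akr1c14 passed at -0.72 (adjusted p = 0.0475). With the block and the trend removed together, the calls of Akr1a1 in 2D (adjusted p = 0.0674) and 3D (0.0729) and of Akr1c12 in the difference (0.0692) ended.

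Depth limits Akr1b7 in 3D and Akr1c19 in 2D most, where a library held 3 to 16 and 6 to 24 reads, and similar copies limit Akr1c12, Akr1c13 and Akr1b3.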
